A study of Homo sapiens with 2 samples.

Results

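Endogenous retroviruses are remnants of ancient retroviral infections of the germline, and a few of their envelope genes carry gene symbols of their own in the human annotation. The loci described here were chosen by name: *ERVW-1*, *ERVFRD-1*, *ERVH48-1*, *ERVMER34-1*, *ERV3-1*, *ERVMER61-1*, *ERVK3-1*, and *ERVK13-1*. Of these 8 names, 7 had a row among the 33538 genes of the count tables, and *ERVK13-1* was not analysed here. In GENCODE release 44, on the hg38 build that the count tables also use, 6 of the 7 are annotated as protein-coding and 1, *ERVMER61-1*, as a long non-coding RNA.

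An envelope protein sits on the surface of a retrovirus, binds a receptor on the target cell, and fuses the viral membrane with that of the cell. A few envelope genes captured from endogenous retroviruses still encode proteins, and the best known act in the placenta, where cells of the trophoblast fuse with each other. In most other tissues, such loci are held silent by DNA methylation and by repressive chromatin, and a fall in DNA methylation is known to release some of them.

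HCT116 cells, an established human colon cancer line, were analyzed by single-cell RNA-seq with 1 library of mock-treated cells and 1 library of cells treated with 5-aza-2′-deoxycytidine (decitabine, DAC), an inhibitor of DNA methyltransferases. The harvest on day 7 after seeding followed 2 doses of 0.5 µM DAC, one on day 1 and the other on day 3, and a drug-free interval that began on day 5. The comparison addressed which envelope loci had more transcripts after DAC treatment, which were already transcribed in mock-treated cells, and in what share of cells. With 1 library per condition, the libraries and the treatment cannot be told apart, no test between conditions was possible, and no p-value is given.

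The mock-treated library held 49911689 unique molecular identifiers (UMIs, each counting 1 captured RNA molecule) in 1783 cells, with a median of 27899 per cell. The DAC-treated library held 59046165 UMIs in 1751 cells, with a median of 35340 per cell, so its total was 1.18-fold larger. The median share of mitochondrial UMIs was 17.9% and 18.3%, and 12 cell barcodes occurred in both libraries. Epithelial markers were present in both libraries, with 17419 UMIs of *EPCAM* in mock-treated and 13099 in DAC-treated cells. Of 9 epithelial markers, *CEACAM5* had 1 UMI in mock-treated and 0 in DAC-treated cells. Among 14 markers of leukocytes, fibroblasts, endothelium, and trophoblast, 10 had 10 UMIs or more, and 9 of these had a 2-fold or higher level after DAC treatment, 7 of them with fewer than 10 mock UMIs. Among all genes with 10 UMIs or more, 25.4% were 2-fold or more higher, and among those with fewer than 10 mock UMIs, 77.4%. The summed level of the 14 markers was 11.7 in mock-treated and 25.5 in DAC-treated cells per 1000000 UMIs, and 1.04 and 6.67 without *COL1A1*, which made up most of it. Of these markers, *PTPRC*, *PECAM1*, and *CD3E*, which define leukocytes, endothelium, and T cells, had 0 UMIs in mock-treated cells and 16, 46, and 24 after DAC treatment. Their part in the values below was not tested.

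Levels are given as CPM (UMIs of a gene per 1000000 UMIs of all genes in the library), and the CPM ratio is the level in DAC-treated over that in mock-treated cells. All intervals are exact 95% intervals and cover counting error only, not the spread between cultures. In an RNA pool from many cells, a lower level can come from fewer cells with the transcript or from less RNA per cell, so shares of cells are given after the levels.

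Among the 6 loci with 10 UMIs or more over both libraries, 3 had a CPM ratio of 2 or more, namely *ERVMER61-1*, *ERVH48-1*, and *ERVW-1*, against 25.4% of all 19130 genes with as many UMIs. These 3 loci had fewer than 10 UMIs in mock-treated cells and reached the minimum only through the DAC-treated library, so that a higher level there was built into their selection. Of the 3652 genes with so few mock UMIs that reached the minimum, 77.4% had a ratio of 2 or more, and the loci are to be read against that share. The other 3 loci, *ERVMER34-1*, *ERVK3-1*, and *ERV3-1*, had between 100 and 1000 UMIs in mock-treated cells. None of these 3 reached a ratio of 2, compared with 11.8% of the 6365 genes in the same range of mock counts. None of these 3 had a ratio of 0.5 or less either, against 8.39% of all genes with 10 UMIs or more. The 3 loci with few mock UMIs could not have such a ratio, given their mock counts and the minimum. The median log2 ratio was 0.42 over the 3 loci that were already transcribed, 0.19 over all genes in their range of mock counts, and 0.32 over all genes with 10 UMIs or more. Scaling by the median of the gene-wise ratios instead of total UMIs lowers every log2 ratio, of the loci and of all genes alike, by 0.24.

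**Figure D1:**
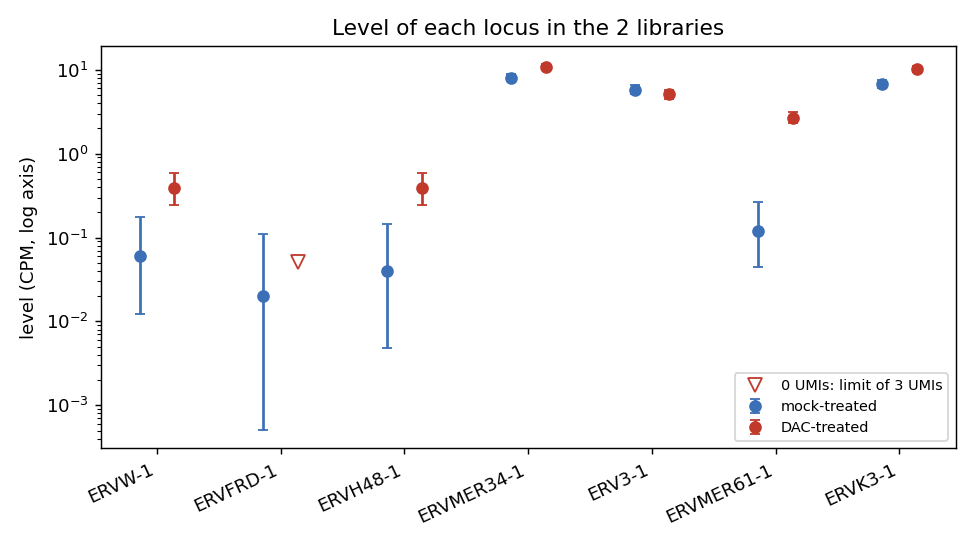
Level of the 7 loci in CPM on a log axis, in mock-treated (blue) and DAC-treated (red) cells, with points for the library value and bars for the exact 95% Poisson interval; the open triangle marks the level of 3 UMIs for a count of 0. The intervals of *ERVMER61-1*, *ERVH48-1*, *ERVW-1*, *ERVMER34-1*, and *ERVK3-1* are apart between the libraries, most widely for *ERVMER61-1*, and those of *ERV3-1* overlap.

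Both loci that encode cell-fusing envelopes of the placenta were nearly absent from mock-treated cells. *ERVW-1*, which encodes syncytin-1, lies on the minus strand at chr7:92468380-92477986. It had 3 UMIs in mock-treated cells (0.0601 CPM) and 23 in DAC-treated cells (0.390 CPM), a ratio of 6.48 (1.96 to 33.7). *ERVFRD-1*, which encodes syncytin-2, lies on the minus strand at chr6:11102489-11111725. It had 1 UMI after mock treatment and none after DAC treatment, where 3 UMIs would be 0.0508 CPM. Its ratio could not be formed at this depth, and a difference was not detectable. The syncytin genes thus differed in what was measured, with counts above the floor of 3 UMIs in DAC-treated cells for *ERVW-1* and none for *ERVFRD-1*, although the intervals of the counts in mock-treated cells, 0.619 to 8.77 and 0.0253 to 5.57 UMIs, overlapped.

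The inhibitor of this fusion showed counts like those of *ERVW-1*. *ERVH48-1* encodes suppressyn, a secreted truncated envelope that binds the syncytin-1 receptor and blocks fusion, and it lies on the minus strand at chr21:42916803-42925630. It had 2 UMIs in mock-treated cells (0.0401 CPM) and 23 in DAC-treated cells (0.390 CPM), a ratio of 9.72 (2.40 to 85.1). The intervals of the ratios of *ERVH48-1* and *ERVW-1* overlapped widely, and both rested on 3 or fewer mock UMIs.

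*ERVMER34-1*, which encodes an envelope protein that is shed from the cell (HEMO), had the most UMIs of the 7 loci in both libraries. It lies on the minus strand at chr4:52722618-52751586. Its 401 UMIs in mock-treated cells (8.03 CPM) compared with 636 in DAC-treated cells (10.8 CPM), a ratio of 1.34 (1.18 to 1.52). The log2 ratio of 0.42 compared with a median of 0.32 over all genes and 0.19 over genes with 100 to 1000 mock UMIs, and with scaling by gene-wise ratios the ratio was 1.14.

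*ERV3-1* encodes an envelope of a single-copy retrovirus that lacks the fusion activity of the syncytins, and it was also transcribed without treatment. It lies on the minus strand at chr7:64990356-65006743. It had 290 UMIs in mock-treated cells (5.81 CPM) and 300 in DAC-treated cells (5.08 CPM), a ratio of 0.874 (0.742 to 1.03). The interval included 1, and the direction depended on the cells used, since the ratio was 1.05 without cells that had more than 20% mitochondrial UMIs. *ERV3-1* was the only one of the 6 loci with a main ratio below 1.

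*ERVMER61-1* had the highest ratio of the 6 loci. The symbol names a locus of the MER61 group on the plus strand at chr1:187070700-187687674. GENCODE 44 calls it *LINC01036*, a long non-coding RNA with 18 transcripts over 616975 bases, and not a gene of a known envelope protein. The annotation release used in counting is not given, so which of these transcripts its UMIs stand for is not known. *ERVMER61-1* had 6 UMIs in mock-treated cells (0.120 CPM) and 159 in DAC-treated cells (2.69 CPM), a ratio of 22.4 (10.1 to 62.0). Its lower bound lay above the ratios of *ERVW-1* and *ERVH48-1*, whose own intervals reached past it. Over 9 other ways of scaling or of choosing cells, the ratio of *ERVMER61-1* lay between 19.0 and 52.1.

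*ERVK3-1*, a locus of the K3 group on the plus strand at chr19:58305374-58316812, was already transcribed in mock-treated cells and had a somewhat higher level after DAC treatment. It had 335 UMIs in mock-treated cells (6.71 CPM) and 603 in DAC-treated cells (10.2 CPM), a ratio of 1.52 (1.33 to 1.74). With scaling by gene-wise ratios the ratio was 1.29, and it was 2.15 when CPM was computed in each cell and then averaged, which gives every cell the same weight.

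DAC acts through methylation of the base C in the dinucleotide CG, and the sequence just before the start of a locus shows how many such sites lie there. RefSeq windows of 250 bases before a start (build GRCh38.p14) were matched for 4 loci, with 5 windows in all. The median over all 35116 such windows was 11 CG, and 93.9% held at least 1. *ERVK3-1* had 20 CG and *ERVMER34-1* had 19, which is as many as or more than in 69.8% and 67.6% of windows, whereas *ERVW-1* had 4 CG, as many as or more than in 34.3%. *ERV3-1* had 7 CG at its outer start and 3 at its inner start. All 250 bases of the *ERVW-1* window lie in exons of longer annotated transcripts of the gene, so it was not printed. For the 3 loci that were already transcribed in mock-treated cells, the stretches of the windows outside annotated exons are given 5′ to 3′ with every CG in capitals, to show how far their starts differ in CG content. The *ERVK3-1* stretch is at chr19:58305127-58305373 on the plus strand (19 CG in 247 bases), the *ERVMER34-1* stretch at chr4:52751587-52751675 on the minus strand (8 CG in 89 bases), and those of *ERV3-1* at chr7:65006744-65006937 (outer, 5 CG in 194 bases) and chr7:64999443-64999692 (inner, 3 CG in 250 bases) on the minus strand.
ERVK3-1: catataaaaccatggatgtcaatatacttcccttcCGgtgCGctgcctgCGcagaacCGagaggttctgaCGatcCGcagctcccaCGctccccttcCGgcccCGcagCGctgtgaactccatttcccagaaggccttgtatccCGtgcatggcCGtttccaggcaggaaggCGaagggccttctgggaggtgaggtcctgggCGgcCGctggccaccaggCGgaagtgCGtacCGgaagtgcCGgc
ERVMER34-1: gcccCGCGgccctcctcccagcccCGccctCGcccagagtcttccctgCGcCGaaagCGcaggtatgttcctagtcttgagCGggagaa
ERV3-1, outer start: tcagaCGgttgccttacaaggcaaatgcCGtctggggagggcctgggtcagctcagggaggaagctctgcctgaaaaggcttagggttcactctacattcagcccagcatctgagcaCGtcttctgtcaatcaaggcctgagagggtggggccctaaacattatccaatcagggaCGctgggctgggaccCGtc
ERV3-1, inner start: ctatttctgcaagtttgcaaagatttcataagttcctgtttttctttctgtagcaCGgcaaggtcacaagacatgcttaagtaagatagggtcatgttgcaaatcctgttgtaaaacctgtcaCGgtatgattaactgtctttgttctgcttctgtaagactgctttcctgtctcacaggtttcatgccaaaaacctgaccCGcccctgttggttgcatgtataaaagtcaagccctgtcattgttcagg
The CG of *ERVK3-1* are spread along nearly the whole stretch, while the inner *ERV3-1* start holds 3 single sites. CG is its own reverse complement, so the count is the same on both strands. Methylation of these windows was not analysed here, and the count says nothing of which start was used.

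The transcripts were spread thinly over cells. At least 1 UMI of any of the 7 loci was present in 686 cells after mock treatment (38.5%, 36.2% to 40.8%) and in 878 after DAC treatment (50.1%, 47.8% to 52.5%). For the 3 loci with few mock UMIs, *ERVW-1*, *ERVH48-1*, and *ERVMER61-1*, the share with any of them was 0.617% (0.308% to 1.10%) after mock treatment and 9.88% (8.52% to 11.4%) after DAC treatment. No cell type that lacks these genes is present in a culture of 1 cell line, so the share that free RNA in the droplets would give was not tested.

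*ERVH48-1* had a UMI in 2 of the mock-treated (0.112%) and 22 of the DAC-treated cells (1.26%, 0.789% to 1.90%), and 1 of these 22 cells had 2 UMIs. The 23 UMIs of *ERVW-1* lay in 19 DAC-treated cells, of which 3 had 2 UMIs or more. For *ERVMER61-1*, 15 of the 143 DAC-treated cells with a UMI had 2 or more, and the highest count in a cell was 3. None of these 3 loci had 2 UMIs in any mock-treated cell. For the share of cells with 2 UMIs, a limit of 3 of 1783 cells is 0.168%, and the exact interval for 0 cells reaches 0.2067%.

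Among the loci already transcribed in mock-treated cells, *ERVMER34-1* had a UMI in 320 mock-treated cells (17.9%, 16.2% to 19.8%) and 425 DAC-treated cells (24.3%, 22.3% to 26.4%). *ERVK3-1* had a UMI in 284 (15.9%, 14.3% to 17.7%) and 451 cells (25.8%, 23.7% to 27.9%). For *ERV3-1* the numbers were 251 (14.1%, 12.5% to 15.8%) and 264 cells (15.1%, 13.4% to 16.8%). The intervals of the shares were thus apart for *ERVMER34-1* and *ERVK3-1* and overlapped for *ERV3-1*. Cells with 3 UMIs or more of *ERVMER34-1* numbered 14 among mock-treated cells (0.785%) and 48 among DAC-treated cells (2.74%), with at most 4 and 8 UMIs in a cell. For *ERVK3-1* they numbered 7 (0.393%) and 29 (1.66%), and for *ERV3-1* 5 and 4.

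The share of cells with a UMI depends on how deeply each cell was read, and DAC-treated cells were deeper at the median. Cells of each library were therefore ordered by their total UMIs and divided into 3 groups of like size. The groups are ranks within a library and not equal depths, since they ended at 20137, 33387, and 148446 UMIs in mock-treated and at 17257, 46340, and 110116 UMIs in DAC-treated cells. The share of cells with *ERVMER61-1* was 2.06%, 8.05%, and 14.4% in the low, middle, and high groups of DAC-treated cells, and 0%, 0%, and 1.01% in those of mock-treated cells. In the low and middle groups its level in DAC-treated cells was 6.80-fold and 15.4-fold that of 3 UMIs over the mock-treated group, whose count was 0. Values against 3 UMIs do not cover counting error. In the high group the ratio was 12.0 (5.30 to 33.5). *ERVMER61-1* was thus higher in DAC-treated cells in each of the 3 groups. *ERVH48-1* was in 0%, 0.856%, and 2.92% of DAC-treated cells, and in 0%, 0.337%, and 0% of mock-treated cells. Its ratio was 2.06 (0.337 to 21.6) in the middle group, and in the high group the DAC-treated level was 4.79-fold that of 3 mock UMIs. *ERVW-1* was in 0.342%, 1.37%, and 1.54% of DAC-treated cells, and in 0%, 0%, and 0.505% of mock-treated cells. Its DAC-treated level was 2.75-fold that of 3 mock UMIs in the middle group. In the high group its ratio was 2.93 (0.774 to 16.4), with an interval that included 1.

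For *ERVK3-1*, the CPM ratio was 2.70 (1.61 to 4.61), 1.38 (1.09 to 1.76), and 1.5 (1.26 to 1.80) in the low, middle, and high groups. For *ERVMER34-1* it was 1.02 (0.467 to 2.16), 1.43 (1.12 to 1.83), and 1.28 (1.10 to 1.49), with 20 and 13 UMIs behind the first value. The intervals lay above 1 in all 3 groups for *ERVK3-1*, and in the middle and high groups for *ERVMER34-1*. *ERV3-1* had ratios of 1.04, 1.05, and 0.788, and its interval excluded 1 only in the high group (0.622 to 0.998). Within each library its own level was lower in deeper cells, at 9.70, 6.03, and 5.08 CPM in mock-treated cells and 10.0, 6.32, and 4.0 CPM in DAC-treated cells. *ERVMER34-1* went the other way, at 4.41, 6.57, and 9.43 CPM in mock-treated cells and 4.50, 9.38, and 12.0 CPM in DAC-treated cells. The order of depth groups was thus opposite for these loci in both libraries, and the part that the deeper DAC-treated groups have in the ratios of *ERVMER34-1* was not tested.

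**Figure D2:**
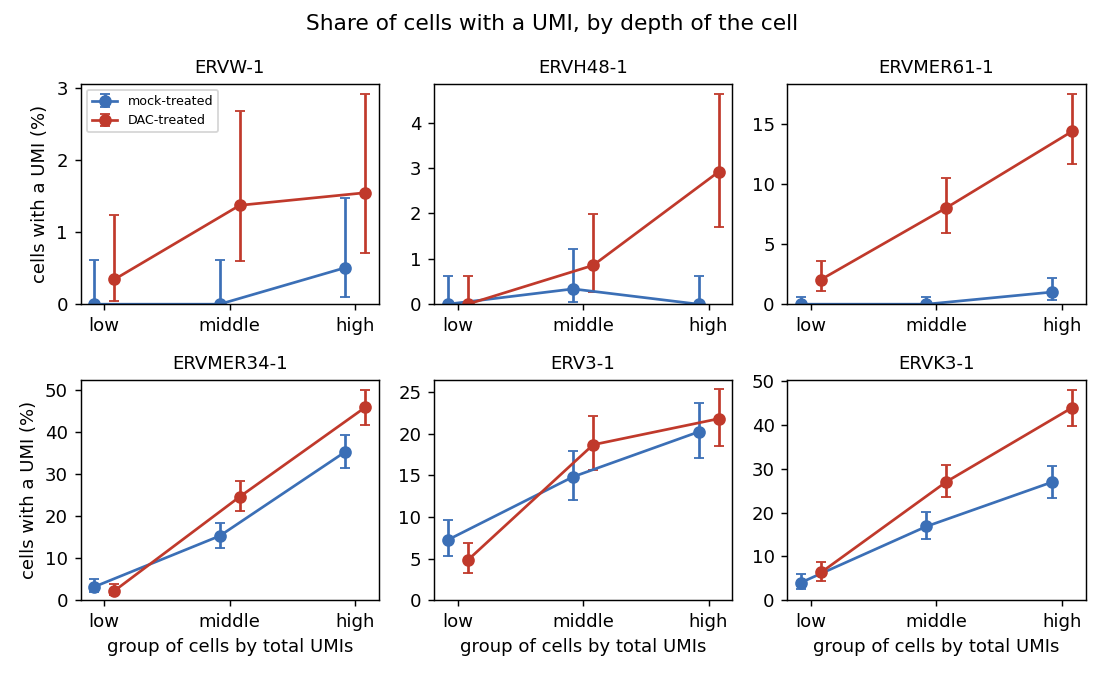
Percent of cells with at least 1 UMI of each of 6 loci, in the low, middle, and high groups of cells by total UMIs, for mock-treated (blue) and DAC-treated (red) cells, with exact 95% binomial intervals as bars and a separate vertical scale for each locus. *ERVMER61-1* stays at or below 1.01% in mock-treated cells and reaches 14.4% in deep DAC-treated cells, whereas the intervals of *ERV3-1* overlap in every group.

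At equal depth, with each cell thinned to 10000 UMIs, the share of cells with *ERVMER61-1* was 0.0811% in mock-treated and 2.66% in DAC-treated cells. It was 7.13% and 9.03% for *ERVMER34-1*, 6.57% and 9.28% for *ERVK3-1*, and 5.96% and 5.64% for *ERV3-1*. Shallower cells, 395 of the mock-treated and 458 of the DAC-treated library, could not be thinned and were not used. At this depth, *ERV3-1* no longer had the larger share in DAC-treated cells that it had over all cells, and the other 3 kept theirs. *ERVW-1* went from 0.0540% to 0.401% and *ERVH48-1* from 0.0533% to 0.382%, and both mock-treated values were below the share that 1 cell makes up.

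If a locus made up an equal fraction of the UMIs in every cell of a library, the number of cells without a UMI would follow from the depths alone. The comparison can show an uneven spread only for loci with many UMIs, so it is given for 3 loci. For *ERV3-1* it gave 1487 DAC-treated cells without a UMI, and 1487 were observed. *ERVK3-1* had 1300 such cells against 1281, and *ERVMER34-1* had 1326 against 1262. More DAC-treated cells than from equal fractions thus lacked *ERVMER34-1*, with a ratio of 1.05. In mock-treated cells, *ERVMER34-1* had 1463 cells without a UMI against 1440.

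Co-detection of several loci in the same cell was set beside the numbers from independent detection, over all cells and among cells of like depth. In DAC-treated cells, 529 cells had UMIs of 1 locus, 268 of 2, 66 of 3, 14 of 4, and 1 of 5. Cells with 2 loci or more numbered 349 (19.9%, 18.1% to 21.9%), where the product of the shares of the single loci over all cells gave 283.0 and the product within 10 groups of cells of like depth gave 346.3. In mock-treated cells, 159 cells (8.92%) had 2 loci or more, where the products gave 125.7 and 162.7. The number of cells with 2 loci or more was thus close to that from independent detection once cells of like depth were compared, in both libraries. The 14 DAC-treated cells with 4 loci (0.438% to 1.34% of cells) were more than the 6.84 cells from the product within depth groups, which lies below the interval.

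Of single pairs in DAC-treated cells, *ERVMER34-1* and *ERVK3-1* were found together most often, in 180 cells (154.7 to 208.3), against 161.1 from the product within depth groups. *ERVMER34-1* and *ERVMER61-1* were found together in 66 cells (51.0 to 84.0) against 52.0, and *ERVMER61-1* and *ERVK3-1* in 53 against 52.8. The interval of each of these counts included the product within depth groups. *ERVW-1* and *ERVMER61-1* shared 6 cells (2.20 to 13.1) where this product gave 1.95, which lies below the interval and was the only one of the 21 pairs of loci to do so in either library, and *ERVH48-1* and *ERVMER61-1* shared 5 (1.62 to 11.7) where it gave 2.75. *ERVW-1* and *ERVH48-1*, the fusing envelope and its inhibitor, were found together in 0 of 1751 cells. For the share of cells with UMIs of both, a limit of 3 cells is 0.171%, and the exact interval for 0 cells reaches 0.2105%. The product gave 0.383 cells, so this count of 0 says little at this depth.

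**Figure D3:**
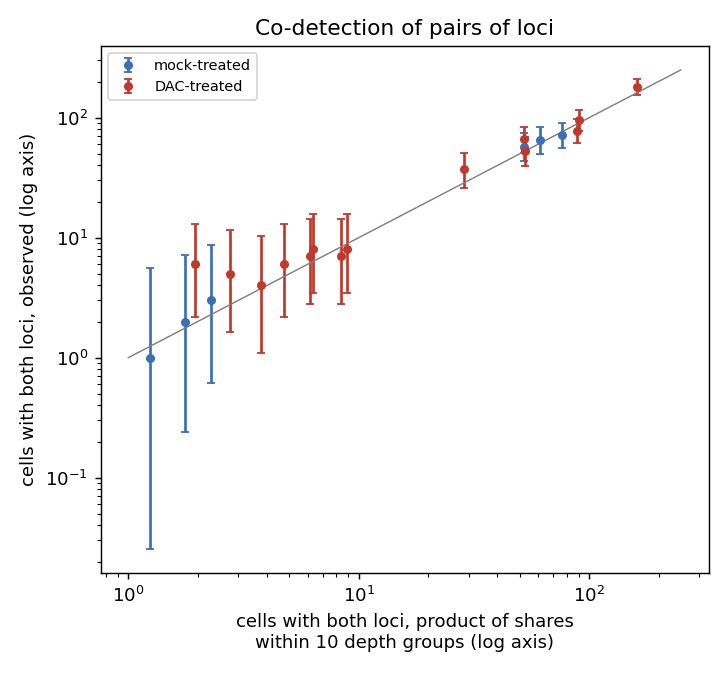
Number of cells with UMIs of both loci of a pair (vertical, log axis, exact 95% Poisson interval as bars) against the number from the product of shares within 10 depth groups (horizontal, log axis), for mock-treated (blue) and DAC-treated (red) cells; pairs with a product under 1 or with 0 cells are not drawn, and the line marks equal numbers. The pairs lie along the line, with *ERVW-1* and *ERVMER61-1* (6 cells against 1.95) the one drawn pair whose interval lies above it.

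Across the 1120 DAC-treated cells with 10000 UMIs or more and at most 50% mitochondrial UMIs, Pearson correlations between log-scaled levels lay between -0.058 and 0.067 for the 6 pairs of *ERVMER34-1*, *ERV3-1*, *ERVMER61-1*, and *ERVK3-1*, and the rarer loci were not used. Among 13246 genes detected in at least 5% of these cells, those most like *ERVMER34-1* were *LYAR*, *GAL*, and *TIMM8A*, each with r of 0.21, and those most like *ERVK3-1* were *RNF139-AS1*, *AL451085.2*, and *MZF1-AS1*, with r of 0.19, 0.19, and 0.18. Cells of 1 library share their depth and background, and correlations this weak in sparse counts are no finding.

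The genes beside a locus did not share its ratio where the locus had few mock UMIs. *GATAD1*, at 8305 bases from *ERVW-1*, had a ratio of 0.594 (0.555 to 0.635), below 1 while *ERVW-1* was at 6.48, and *AC007566.1*, which overlaps *ERVW-1* on the opposite strand, had 4 and 1 UMIs. *NDUFV3*, a gene of mitochondrial complex I at 3499 bases from *ERVH48-1*, had a ratio of 0.870 (0.829 to 0.913). *PLA2G4A*, a phospholipase gene at 81719 bases from *ERVMER61-1*, had 136 and 135 UMIs, a ratio of 0.839 (0.656 to 1.07). The higher counts of these 3 loci were thus not shared by the protein-coding neighbors named here. These 3 loci reached the minimum only through the DAC-treated library, whereas these neighbors had 2096, 3339, and 136 mock UMIs. Part of the difference in ratio was thus built into the selection.

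Some neighbors of the other loci overlap them, which limits what their counts mean. Which strand setting was used in counting is not given in the sources used here, and reads in stretches shared by genes cannot be assigned with certainty. *ZNF117*, a zinc finger gene on the same strand that overlaps *ERV3-1*, had 137 and 92 UMIs, a ratio of 0.568 (0.431 to 0.745), lower than that of *ERV3-1*. *ZNF273*, at 59375 bases from *ERV3-1*, had 159 and 277 UMIs, a ratio of 1.47 (1.21 to 1.80). *RASL11B*, at 110731 bases from *ERVMER34-1*, had 23 and 38 UMIs, a ratio of 1.40 (0.811 to 2.46). The ratio of *ERV3-1* thus lay between those of its neighbors, and that of *ERVMER34-1* within the interval of its own. *AC010642.2*, on the opposite strand over *ERVK3-1*, had 1349 and 2041 UMIs, a ratio of 1.28 (1.19 to 1.37). *AC020915.1*, on the same strand over *ERVK3-1*, had 13 and 38 UMIs, a ratio of 2.47 (1.29 to 5.06), and *ZNF8*, which ends 2583 bases before *ERVK3-1*, had 329 and 327 UMIs, a ratio of 0.840 (0.719 to 0.982). *ZSCAN22*, on its other side, had 115 and 174 UMIs, a ratio of 1.28 (1.01 to 1.63). *ERVK3-1* thus lay between genes with ratios above and below 1. *SMIM13*, on the opposite strand over *ERVFRD-1*, had 1016 and 2142 UMIs, a ratio of 1.78 (1.65 to 1.92), while *ERVFRD-1* itself had 1 and 0.

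**Figure D4:**
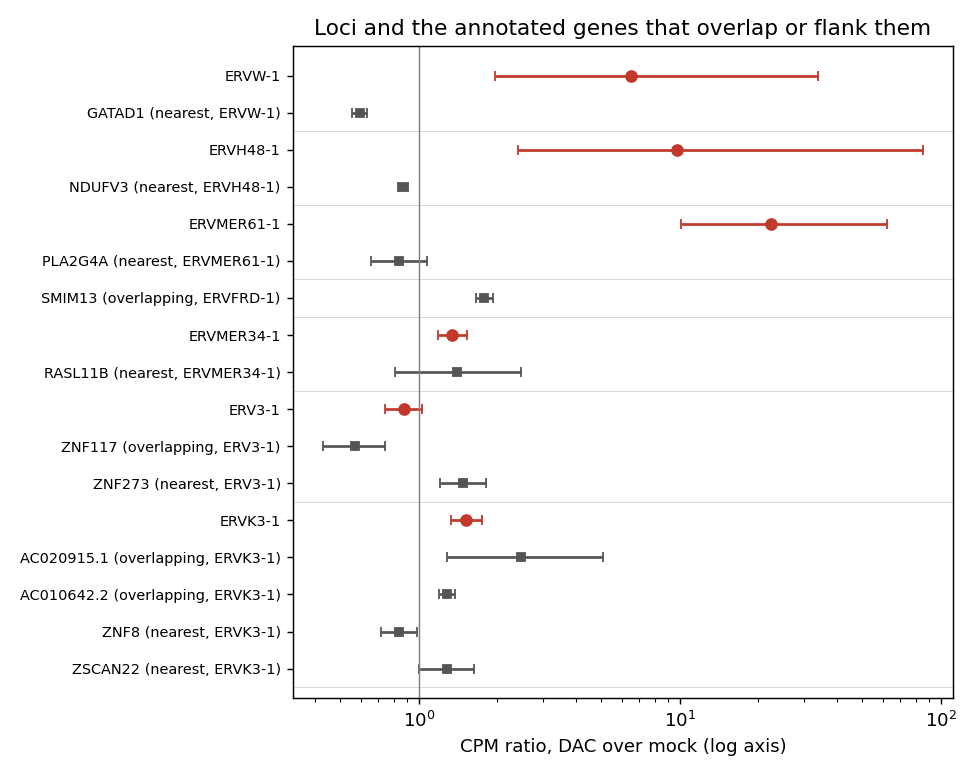
CPM ratio of DAC-treated over mock-treated cells (log axis) with exact 95% intervals, for 6 loci (red circles) and for reported genes with 10 UMIs or more that overlap or lie nearest to any of the 7 loci (grey squares); the vertical line marks a ratio of 1. *ERVW-1*, *ERVH48-1*, and *ERVMER61-1* lie far to the right of the neighbors drawn, and the ratios of *ERVMER34-1*, *ERV3-1*, and *ERVK3-1* lie within the range of theirs or near it. *ERVW-1*, *ERVH48-1*, and *ERVMER61-1* reached the minimum only through the DAC-treated library, so part of this difference was built into their selection.

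The receptors that placental envelopes bind were all transcribed in HCT116 cells. *SLC1A5*, an amino acid transporter that is the receptor of syncytin-1 and the target of suppressyn, had 5547 UMIs in mock-treated and 4251 in DAC-treated cells, a ratio of 0.648 (0.622 to 0.674). *SLC1A4*, a related transporter, had 331 and 146 UMIs, a ratio of 0.373 (0.305 to 0.454). *MFSD2A*, a lipid transporter that is the receptor of syncytin-2, had 142 and 313 UMIs, a ratio of 1.86 (1.52 to 2.29). Of the 3 receptor genes, 1 was thus at or below a ratio of 0.5 and none at 2 or more, against 8.39% and 25.4% of all genes.

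Other genes of retroviral origin, and genes that silence retroelements, gave the setting of these values. Of 9 other annotated retroviral loci, 2 had 10 UMIs or more, and neither had a ratio of 2 or more: *ERVK9-11* had 10 and 17 UMIs (1.44, 0.621 to 3.51) and *HHLA3* had 640 and 468 (0.618, 0.548 to 0.698). Of 25 genes domesticated from retroelement gag or pol genes, 19 had 10 UMIs or more and 10 had a ratio of 2 or more, 7 of them among the 7 genes with fewer than 10 mock UMIs, where 77.4% of all such genes passed. The highest ratio of these was that of *PNMA5*, with 2 and 3400 UMIs (1437, 397.5 to 11871), and the lowest that of *RTL8A*, with 4577 and 3064 UMIs (0.566, 0.540 to 0.593). *PEG10*, a gag-derived gene that is needed for the placenta, had 317 and 2115 UMIs, a ratio of 5.64 (5.01 to 6.37). Of 21 genes of retroelement silencing, 5 had a ratio of 2 or more and none of 0.5 or less, near the 25.4% of all genes at 2 or more, with a median log2 ratio of 0.54. *ZNF93*, a zinc finger repressor of retroelements, had 0 and 18 UMIs, and its DAC-treated level was 5.07-fold that of 3 mock UMIs over the library. *UHRF1*, which directs DNMT1 to newly copied DNA, had 867 and 2792 UMIs, a ratio of 2.72 (2.52 to 2.94), and *DNMT3A*, a de novo DNA methyltransferase, had the lowest ratio of the list with 369 and 359 UMIs (0.822, 0.709 to 0.954). *TRIM28*, the corepressor recruited by zinc finger proteins to retroelements, had 7785 and 14097 UMIs, a ratio of 1.53.

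Placental envelopes are normally transcribed with other genes of the trophoblast. Of 27 trophoblast genes, 14 had 10 UMIs or more, 6 had a ratio of 2 or more and none of 0.5 or less, against 25.4% and 8.39% of all genes, with a median log2 ratio of 0.40 against 0.32. Of these 6, 3 were among the 5 genes with fewer than 10 mock UMIs, where 77.4% of all such genes passed. *GCM1*, the transcription factor that drives the syncytin genes in trophoblast, had 1 UMI in mock-treated and 0 in DAC-treated cells. *CGA*, a hormone subunit gene, and *PSG1*, a gene of a pregnancy-specific glycoprotein, had 0 UMIs in mock-treated cells and 4 and 9 in DAC-treated cells. *XAGE3*, a cancer-testis gene that is also expressed in placenta, had the highest ratio of the list, with 1 and 155 UMIs (131.0, 23.2 to 5208), and *PAPPA*, a secreted protease of the placenta, had the lowest, with 23 and 15 UMIs (0.551, 0.268 to 1.10).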

How the data were processed

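Single-cell RNA-seq libraries (10x Genomics, 3′ kit v3) of 1 mock-treated and 1 DAC-treated culture of HCT116 cells were analyzed. The authors processed the reads with Cell Ranger against hg38 and deposited UMI counts, without normalization, for 33538 genes in 1783 and 1751 cells. The aligner settings, strand setting, and annotation release are not given in the sources used here. All deposited cells were used, with totals from 500 to 148446 UMIs and from 501 to 110116 UMIs, and doublets were not called, but the 5% of cells with the most UMIs were left out in an alternative.

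Counts were summed per library and divided by total UMIs. Ratios were given exact conditional binomial intervals, counts exact Poisson intervals, and shares Clopper-Pearson intervals (95%, scipy 1.17.1, numpy 2.4.6, Python 3.11.15). No test was run, because cells of 1 library are not replicates. Calls used a ratio of 2 or 0.5 and a minimum of 10 UMIs over both libraries. Where a mock count of 0 was replaced by 3 UMIs, the value has no interval for counting error. Thinning drew UMIs without replacement, averaged over 200 draws. Positions came from GENCODE 44 and start windows from RefSeq.

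The neighboring gene on 1 side of a locus is not reported here. The loci and the gene lists were chosen with earlier results of these data known. Besides the loci, the text names the genes that overlap them or lie nearest to them, apart from those with 2 UMIs or fewer in each library, and the most correlated genes, and, for each list, the genes with the highest and lowest ratio among those with 10 UMIs or more together with further members chosen after their values were seen. Scripts were tested on simulated data. Alternatives changed the scaling, the weight and depth of cells, the cells used, the fold, the minimum, and the UMIs that count as detection.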

Additional observations from a re-analysis of the deposited data

How the results depend on the processing

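With a minimum of 50 UMIs, 1 locus (*ERVMER61-1*) had a ratio of 2 or more in place of 3, and with no minimum, 1 locus in place of 0 counted as 0.5 or less. That locus was *ERVFRD-1*, whose 1 and 0 UMIs lie under the floor and show no difference. With scaling by gene-wise ratios, the ratio was 1.14 for *ERVMER34-1*, 0.741 for *ERV3-1*, and 1.29 for *ERVK3-1*, and when CPM was averaged over cells it was 1.56 for *ERVMER34-1* and 2.15 for *ERVK3-1*, which then also passed a ratio of 2. The ratio of *ERVK3-1* was 1.86 when cells were thinned to 1007 UMIs, and that of *ERV3-1* was 1.05 without cells over 20% mitochondrial UMIs. Over 9 alternatives, the ratios ranged from 5.49 to 11.2 for *ERVW-1*, 6.53 to 15.5 for *ERVH48-1*, and 19.0 to 52.1 for *ERVMER61-1*.

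The share of cells with any locus depended on depth. For mock-treated and DAC-treated cells, it was 2.06% and 3.18% when thinned to 1007 UMIs, 18.6% and 24.6% when thinned to 10000 UMIs, 42.9% and 52.9% without cells over 20% mitochondrial UMIs, 48.6% and 68.6% in cells with 10000 UMIs or more and at most 50% mitochondrial UMIs, 7.52% and 14.9% at 2 UMIs per locus, and 1.46% and 4.63% at 3 UMIs. Without the 5% of cells with the most UMIs, the share was 36.2% in mock-treated cells. The share was higher in DAC-treated cells under each of the alternatives in which both are given. DAC-treated cells with 2 loci or more numbered 0.745 and 33.8 after thinning to 1007 and 10000 UMIs, 330.0 among the deep cells with at most 50% mitochondrial UMIs, and 27 and 2 at 2 and 3 UMIs per locus. Of 12 shares of single loci, 12 were lower when thinned to 1007 UMIs, 10 when thinned to 10000 UMIs, and 1 without the 5% of cells with the most UMIs, and 8 were higher in the deep cells and 3 without cells over 20% mitochondrial UMIs, beyond their intervals. At 2 and at 3 UMIs, 12 were lower. Leaving out the 12 shared barcodes moved none of them. The cause of these shifts was not tested, apart from depth, which thinning itself lowers.

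No paired analysis was possible because each condition had 1 library. With 3 or fewer mock UMIs, *ERVW-1* and *ERVH48-1* have ratios whose intervals span more than an order of magnitude, and *ERVFRD-1* cannot be assessed.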

Other observations

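In DAC-treated cells with 10000 UMIs or more and at most 50% mitochondrial UMIs, the cells with a UMI of a locus were set beside those without, in a comparison chosen after the data were seen. Interferon-stimulated genes, a list of 18 genes chosen with their values known, took a median of 26.8 of 10000 UMIs (quartiles 13.3 and 50.7) in the 128 cells with *ERVMER61-1* and 21.9 (10.8 and 44.6) in the 992 cells without it. The quartiles overlapped almost wholly, and the cells with *ERVMER61-1* were deeper, with a median of 52586 against 46298 UMIs. The medians were 30.3 (quartiles 17.0 and 43.4) in the 16 cells with *ERVW-1* and 22.0 (11.0 and 45.65) in the 1104 without it. They were 24.6 (13.7 and 41.7) in the 22 cells with *ERVH48-1* and 22.1 (11.0 and 45.9) in the 1098 without it. For these loci too the quartiles overlapped widely, and the cells with a UMI were deeper at the median. In the 400 cells with *ERVK3-1* the median was 21.1, against 22.9 in the 720 cells without it. It was 22.8 and 21.9 for *ERVMER34-1*, and 22.4 and 22.0 for *ERV3-1*.

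The 22204 genes that never exceeded 2 UMIs in a cell after mock treatment took a median of 148.2 of 10000 UMIs (130.3 to 192.5) in the 16 cells with *ERVW-1* and 110.8 (91.8 to 140.6) in the 1104 cells without it, with a median depth of 51228 and 47016 UMIs. The medians were 117.7 and 110.6 for *ERVMER61-1*, 113.8 and 111.2 for *ERVH48-1*, 114.8 and 109.6 for *ERVMER34-1*, 114.0 and 110.8 for *ERV3-1*, and 112.3 and 110.5 for *ERVK3-1*. Cells of 1 library are not replicates, so neither comparison was tested.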
